A study of Mus musculus with 4 samples.

Results

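m6A-seq of mouse brain placed 439 m6A peaks shared by both replicates deep inside introns, out of 23901 shared intervals in all (1.84%, 95% Wilson interval 1.67 to 2.01%). A shared interval is the stretch where peaks of the 2 lists overlap, by at least 1 bp. An interval was counted as deep intronic when its midpoint lay inside a gene body of the GENCODE M21 annotation (build GRCm38, mm10), in no exon of any transcript and more than 500 bp from every annotated exon. The measure of each peak is its fold enrichment, the linear ratio of immunoprecipitated (IP) over input RNA that the authors' peak caller gave. No fold enrichment cutoff was set here to choose the 439 intervals. The authors' peak caller had, however, kept only peaks that passed its own cutoff for IP over input. All comparisons below are descriptions with no test, since the intervals are not replicates and 2 IP samples of 1 group stand behind them, and Wilson intervals cover counting error only.

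N6-methyladenosine (m6A) is a methyl mark that is written onto RNA while it is being transcribed, by a complex built around Mettl3 and Mettl14, within the short motif DRACH, of which GGACT is the best known form. In mature mRNA it is found mostly in long internal exons, around stop codons and in 3′ UTRs. Introns are removed and mostly degraded in the nucleus, so that little intron sequence is left in poly(A)-selected RNA.

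The 2 IP samples came from whole brain of C57BL/6J mice at 4 weeks of age, and the series design text describes the animals as Prrc2a flox/flox. Prrc2a is an RNA-binding protein that was tested in the study as an m6A reader, and its gene carries loxP sites in such mice. No Cre driver is named in the labels, and no other genotype or treatment is compared. RNA was poly(A)-selected and fragmented before the IP. The 2 input samples enter only through the fold enrichment of the peaks. The replicate 1 list holds 38533 peaks and the replicate 2 list 30134. Neither list gives reads, strand or coverage, so that the depth behind each value is unknown. Peaks in exons fitted the labelled tissue: 4 of 5 neuronal markers had a shared exonic interval (Gad1 had none), as did 4 of 4 oligodendrocyte, 3 of 3 astrocyte and 2 of 2 microglial markers, against 0 of 4 markers of other organs.

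Sequences of members with the largest fold enrichment in both replicates are printed first, because most of these were either a simple repeat or a stretch found in several introns. Each is read 5′ to 3′ on the strand of its host gene from mm10, and is the member itself or the 300 bases around its midpoint. The strand of the RNA behind a peak was not measured. In the first set, capitals mark runs of AG or GA, of AC or CA, or the word GAAAGAAA, each over at least 8 bases.
Nrg3, chr14:39369123-39369422, minus strand: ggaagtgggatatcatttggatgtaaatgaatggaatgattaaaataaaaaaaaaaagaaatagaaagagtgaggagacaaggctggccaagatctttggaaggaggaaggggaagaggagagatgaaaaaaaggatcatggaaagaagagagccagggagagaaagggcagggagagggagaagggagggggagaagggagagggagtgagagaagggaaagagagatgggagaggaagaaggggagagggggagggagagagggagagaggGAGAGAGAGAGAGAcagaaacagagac
Kcnip4, chr5:49297191-49297479, minus strand: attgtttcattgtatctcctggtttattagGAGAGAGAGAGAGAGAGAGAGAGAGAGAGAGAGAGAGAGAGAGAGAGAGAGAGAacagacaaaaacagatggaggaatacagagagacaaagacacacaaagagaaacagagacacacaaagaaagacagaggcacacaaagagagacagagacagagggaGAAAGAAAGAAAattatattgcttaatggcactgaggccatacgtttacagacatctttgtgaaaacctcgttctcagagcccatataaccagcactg
Ppm1e, chr11:87262733-87263032, minus strand: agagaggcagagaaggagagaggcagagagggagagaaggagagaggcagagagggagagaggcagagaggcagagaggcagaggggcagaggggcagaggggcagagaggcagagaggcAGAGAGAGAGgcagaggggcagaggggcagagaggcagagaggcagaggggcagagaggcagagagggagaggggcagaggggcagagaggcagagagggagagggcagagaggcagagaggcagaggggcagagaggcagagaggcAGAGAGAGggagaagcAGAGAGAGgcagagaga
Grik1, chr16:87901214-87901513, minus strand: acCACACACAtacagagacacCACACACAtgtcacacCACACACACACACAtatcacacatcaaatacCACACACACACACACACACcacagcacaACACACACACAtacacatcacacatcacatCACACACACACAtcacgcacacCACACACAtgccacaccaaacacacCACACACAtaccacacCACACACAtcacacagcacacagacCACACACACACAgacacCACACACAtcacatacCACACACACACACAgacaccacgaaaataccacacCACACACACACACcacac

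In the second set, capitals mark GGAC, the core of the m6A motif.
Vax2, chr6:83732148-83732447, plus strand: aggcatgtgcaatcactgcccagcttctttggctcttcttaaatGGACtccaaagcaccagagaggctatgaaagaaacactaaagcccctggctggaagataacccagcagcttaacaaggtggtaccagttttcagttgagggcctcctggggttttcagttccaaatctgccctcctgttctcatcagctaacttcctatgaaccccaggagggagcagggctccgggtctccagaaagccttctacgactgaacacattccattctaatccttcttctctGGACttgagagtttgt
Prdm16, chr4:154634169-154634468, minus strand: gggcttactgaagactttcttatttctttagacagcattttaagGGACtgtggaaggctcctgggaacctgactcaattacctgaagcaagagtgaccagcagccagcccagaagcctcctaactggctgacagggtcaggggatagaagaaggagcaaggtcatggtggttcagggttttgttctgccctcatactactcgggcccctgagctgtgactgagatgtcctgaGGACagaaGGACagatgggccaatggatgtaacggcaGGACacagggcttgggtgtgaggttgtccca
Cacna2d3, chr14:29687550-29687849, minus strand: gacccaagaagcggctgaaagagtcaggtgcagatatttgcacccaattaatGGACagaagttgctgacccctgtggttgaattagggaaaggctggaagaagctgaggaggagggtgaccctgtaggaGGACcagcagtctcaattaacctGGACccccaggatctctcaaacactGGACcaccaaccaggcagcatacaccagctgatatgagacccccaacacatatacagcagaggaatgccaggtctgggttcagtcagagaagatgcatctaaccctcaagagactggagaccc

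In the last sequence, capitals mark the bases inside words of 20 that also occur, on either strand, in another deep intronic member of the same sequence group described below.
Dram1, chr10:88367325-88367624, minus strand: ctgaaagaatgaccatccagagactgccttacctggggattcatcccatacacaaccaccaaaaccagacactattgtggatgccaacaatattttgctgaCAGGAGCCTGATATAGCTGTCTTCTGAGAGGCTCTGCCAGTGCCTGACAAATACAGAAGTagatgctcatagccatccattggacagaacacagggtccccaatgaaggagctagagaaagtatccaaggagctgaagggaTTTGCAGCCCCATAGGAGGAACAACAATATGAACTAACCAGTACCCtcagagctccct

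The Nrg3, Kcnip4 and Ppm1e members are built largely of A and G, and the Grik1 member of alternating C and A. The Nrg3 member (neuregulin 3, a ligand of the ErbB4 receptor) was enriched 11.4-fold in replicate 1 and 5.78-fold in replicate 2. The Kcnip4 member (a calcium-binding partner of Kv4 potassium channels) had 6.70 and 5.71. The Ppm1e member (a protein phosphatase) had 8.27 and 5.71. All 3 exceeded the medians of all shared intervals, 3.04 in replicate 1 and 2.34 in replicate 2. As they were picked among the strongest members, this was fixed in advance. The Grik1 member (a kainate receptor subunit) had 8.87 and 4.96. None of these 4 printed sequences holds GGAC.

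Other printed members do hold GGAC. All were picked by fold enrichment, so their values cannot be compared with those above by motif. The Vax2 member (a homeobox factor of the developing eye and forebrain) had the largest lower value of all members, with 8.0 in replicate 1 and 6.02 in replicate 2, and its 300 bases hold GGACT at 2 places. The Prdm16 member (a transcriptional regulator of neural stem cells) had 5.14 and 4.96, with GGAC at 4 places, 1 of them GGACT. The Cacna2d3 member (an auxiliary calcium channel subunit) had 5.52 and 6.27, with GGAC at 4 places and no GGACT. The other members among the 10 strongest, 1 per host, were in Anks1b (7.0 and 5.79), Dram1 (6.00 and 4.73) and Fgf12 (5.61 and 4.71). The printed Dram1 sequence also holds GGAC, at 1 place. The Prdm16 and Dram1 members lie in exons of other genes in the RefSeq annotation.

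Deep intronic intervals had a larger median fold enrichment than shared intervals elsewhere, in both replicates. Their median was 4.12 in replicate 1 (quartiles 3.21 and 5.48, range 1.37 to 11.5) and 2.98 in replicate 2 (quartiles 2.50 and 3.66, range 1.20 to 15.6). The 21999 exonic intervals had medians of 3.02 and 2.33. The 952 intronic intervals within 500 bp of an exon, called near-intronic here, had 2.70 and 2.17. The 511 intervals outside genes, at 3.61 and 2.80, came closest to the deep intronic ones. All these intervals come from peaks that passed the caller's cutoff in both lists, and its part in the differences was not tested. In whole tissue, fewer cells carrying an RNA and less of it per cell cannot be told apart, and the ratio of IP over input removes only what both share.

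**Figure D1:**
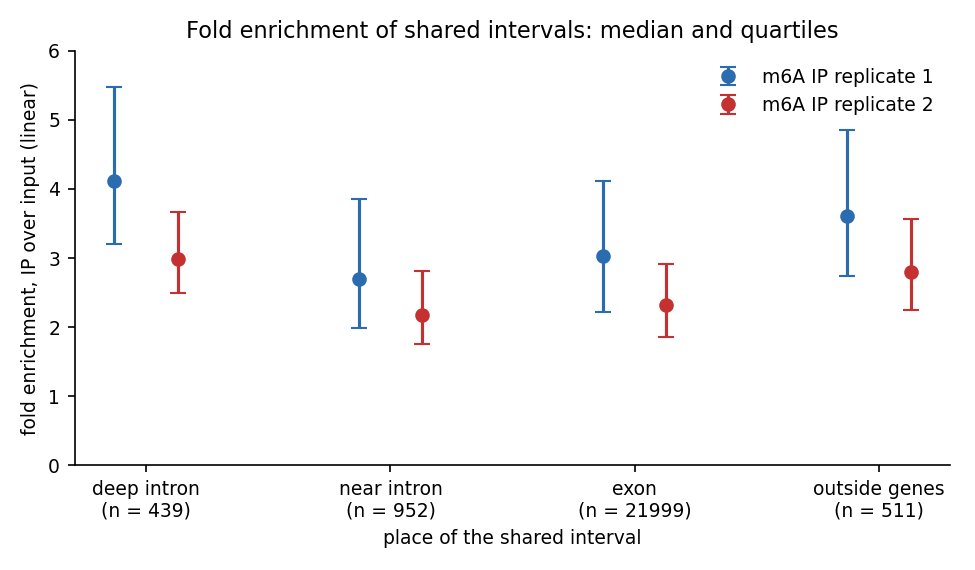
Fold enrichment (IP over input, linear scale) of shared intervals by place, with points for the median over intervals, bars for the quartiles, and colours for the 2 m6A IP replicates. The deep intronic medians, 4.12 and 2.98, lie above those of the exonic intervals, 3.02 and 2.33, in each replicate, and the quartile ranges overlap.

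The order of the members by fold enrichment was less alike in both replicates than that of other intervals. Fold enrichment was larger in replicate 1 in 343 of 439 members (78.1%), close to the 77.6% over all shared intervals. Across the 439 members Spearman's correlation between replicates was 0.284, against 0.611 across the exonic and 0.584 across the near-intronic intervals. Across the intervals outside genes it was 0.429. These correlations are descriptions, since all points of a replicate share its libraries. The extreme case, singled out after its values were seen, was a member in Gm44511 with 1.37 in replicate 1 and 15.6 in replicate 2. Both values were 2 or more in 393 members, and 4 or more in 54.

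The lists differed most in how many deep intronic peaks they held. Replicate 1 had 3267 peaks with their own midpoint deep in an intron (8.48% of its list) and replicate 2 had 568 (1.88%). Replicate 2 had an overlapping peak for 415 of the former (12.7%, 11.6 to 13.9%), and for 67.8% of the exonic, 45.4% of the near-intronic and 28.7% of the gene-free peaks of replicate 1. Replicate 1 had one for 441 of the latter (77.6%, 74.0 to 80.9%), close to the share of the exonic peaks of replicate 2 (77.5%) and of those outside genes (79.8%). The shared set is therefore most of what replicate 2 called deep in introns and a small part of what replicate 1 called there.

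Many of these peaks carried a fold enrichment that another peak of the same list had to the last deposited digit. This held for 51.8% of the replicate 1 and 76.0% of the replicate 2 deep intronic peaks that overlapped the other list, against 21.5% and 38.1% of the exonic ones. Peaks outside genes lay between, at 40.2% and 58.9%. The value 3.66 occurs for example in replicate 2 for the Cadm2 member farthest from exons and for an Adgrb3 member. The reads behind repeated values were not in the lists.

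The members were richer in purines than near-intronic and exonic intervals. Purines (A and G) made up a median of 62.6% of the bases on the host strand in the 408 members with 1 host (quartiles 51.6 and 71.6), against 53.3% in near-intronic and 52.6% in exonic intervals on the gene strand. At least 70% purine was reached by 122 members (29.9%, 25.7 to 34.5%), by 2.29% of the near-intronic and by 0.627% of the exonic intervals. At most 30% purine, which is the same composition on the opposite strand, was found in 6 members (1.47%). This measure was chosen after the sequences of the strongest members had been read.

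The surrounding introns did not have this composition. All deep intronic sequence of the representative transcripts of the hosts was divided into 277867 windows of 200 nt, of which 0.915% were at least 70% purine and 1.20% at most 30%. The median window held 49.5% purine. In windows of the same 200 nt around the member midpoints the shares were 30.6% and 1.47%. Purine-rich stretches were thus far more often on the host strand than on the other in the members, and about equally on both strands in the introns.

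**Figure D2:**
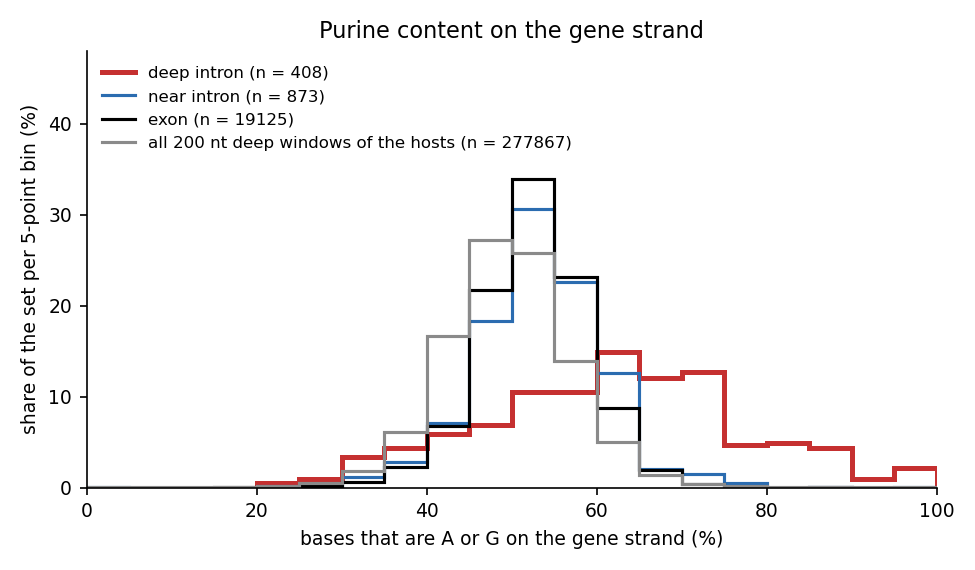
Share of bases that are A or G on the gene strand (x axis, percent) for members with 1 host, near-intronic and exonic shared intervals and all 200 nt deep intronic windows of the hosts, each as the percent of its own set per bin (y axis). The members reach far to the right of the other sets, with a median of 62.6% against 52.6% for exons and 49.5% for windows.

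Simple purine repeats showed the same asymmetry. The word AGAGAGAG occurred on the host strand in 83 of 408 members (20.3%) and on the other strand in 6 (1.47%), and in no member on both. In the windows it occurred in 1.89% on the host strand and 1.92% on the other. It was in 4.08% of exonic intervals on the gene strand and 2.50% on the other. GAAAGAAA was found in 32 members on the host strand and 8 on the other. ACACACAC, which holds as many purines as pyrimidines, was found in 25 and 23 members. AGAGAGAG and GAAAGAAA consist of purines only, so their counts are not independent of the purine content above. In addition, 1 member can hold several of the words.

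Purine-rich members had higher medians than those between 30 and 70% purine, but not than the 6 purine-poor ones. Purine content was chosen after the sequences of the strongest members had been read, and the repeat words after the data were seen. The comparison is therefore not independent of these values. The 83 members with AGAGAGAG on the host strand had medians of 5.13 in the first and 3.36 in the second replicate, and the other 325 had 3.95 and 2.93. The 122 members of at least 70% purine had 5.28 and 3.40, and the 280 between 30 and 70% had 3.75 and 2.85. The 6 purine-poor members had 5.48 and 3.42. One of them lies in Gabbr2 (a GABA-B receptor subunit), with 20.1% purine and values of 5.91 and 4.23, and another is a second Vax2 member under the same replicate 1 peak, with 22.6% purine and values of 8.0 and 4.14. Even the members between 30 and 70% purine had medians above those of exonic intervals, 3.02 and 2.33.

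Replicate 1 called many more peaks of this kind that replicate 2 did not. Of its 2660 deep intronic peaks with 1 host that did not overlap the other list, 31.5% were at least 70% purine, and 26.4% held AGAGAGAG on the host strand against 1.5% on the other. The 119 such peaks found in replicate 2 alone had 6.72% at or above 70% purine and 5.04% with AGAGAGAG on the host strand. The 2 lists thus differed in composition as well as in number deep in introns.

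The m6A motif was found in a smaller share of members than of near-intronic and exonic intervals. GGACT was found on the host strand in 98 of 408 members (24.0%, 20.1 to 28.4%) and on the other strand in 72 (17.6%). Near-intronic intervals held it in 35.7% and exonic ones in 42.7% on the gene strand. Within 200 nt at the midpoint, which removes the difference in length, the shares were 16.7% of members, 21% of near-intronic and 27.6% of exonic intervals and 14.0% of all deep intronic windows of the hosts. GGAC, which is part of GGACT, was found within 200 nt in 46.6% of members, 68.2% of exonic intervals and 36.9% of windows. On the other strand the shares were 33.3%, 48.2% and 39.1%. The median share of G and C bases also differed, at 49.5% in members, 54% in exonic intervals and 41.5% in windows. Its part in these shares was not tested. DRACH (where D stands for any base but C, R for a purine and H for any base but G) was in 88.5% of members over the same length and in 96.8% of windows, so its presence says little.

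Members with GGACT on the host strand did not have higher medians than those with it on neither strand. The 98 members with it on the host strand had medians of 4.16 and 2.83, and the 262 with it on neither strand had 4.33 and 3.13. The 48 with it on the other strand only had 3.53 and 2.79. It was in 16 of the 122 members at or above 70% purine (13.1%) and in 81 of the 280 between 30 and 70% (28.9%). The polyadenylation signal AATAAA occurred in 9.07% of members on the host strand and 8.33% on the other.

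Repeats beyond the simple ones were also common. Bases that the genome file marks as repeats or low complexity (soft-masked) made up a median of 26.3% of the members with 1 host, 6.28% of exonic intervals and 16% of the windows. Of all members 173 were at least 50% soft-masked and 81 held no such base. After leaving out simple words, 47 members fell into 15 groups that shared at least 1 word of 20 bases, on either strand, with a member elsewhere. The largest group had 13 members in 11 hosts, among them Dram1, Cacna2d3, Fgf12, Pcdh9 and Adgrb3. Their fold enrichment ran from 2.56 to 9.17 in replicate 1 and from 2.17 to 6.27 in replicate 2. Along the host strands 6 of them shared words with the Dram1 member in the same orientation, and those in Fgf12 and Scn9a in the opposite one. The other 4 were linked through further members. The part of repeated sequence in the fold enrichment of these members was not tested.

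Fold enrichment, purine content and repeats were all higher in members farther from exons. The 97 members between 500 and 1000 bp from an exon had medians of 3.59 and 2.93, the 70 between 10000 and 50000 bp had 4.81 and 3.62, and the 16 beyond had 5.50 and 3.53. Between 2000 and 5000 bp the medians were lower than in the next nearer class, at 3.95 and 2.75. Over the same classes, in members with 1 host, median purine content went from 57.3% through 70.3% to 75.5%, and AGAGAGAG from 7.78% through 38.2% to 50.0%. The share with GGACT went from 34.4% to 11.8%, and was 4 of 16 in the farthest class. The median soft-masked share went from 16% to 78.9%. Since these measures move together, the part of each in the higher enrichment cannot be told apart here.

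**Figure D3:**
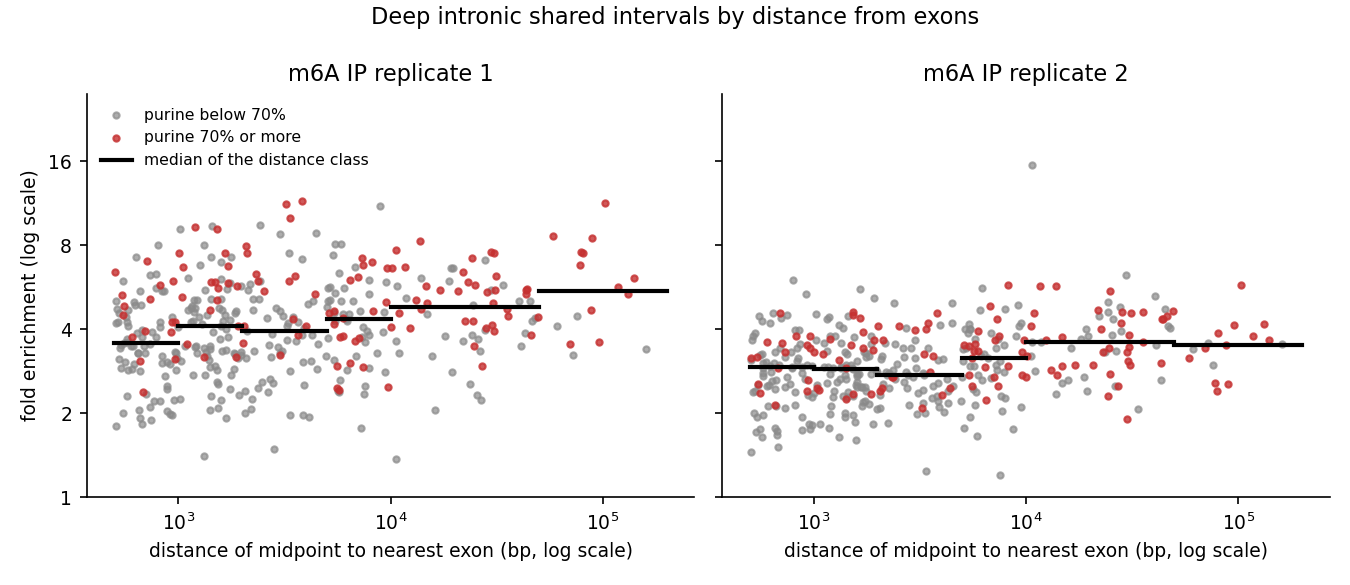
Fold enrichment (log scale) of the 408 members with 1 host against the distance of the midpoint to the nearest annotated exon (log scale), 1 panel per replicate, with members of at least 70% purine in red. Black bars are the medians over all members of each distance class, from 3.59 to 5.50 in replicate 1 and from 2.75 to 3.62 in replicate 2.

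The median member was 260 nt long (20 to 1919 nt) and lay 2373 bp from the nearest exon. Of the 439 members, 86 were over 10 kb and 5 over 100 kb away. In 397 the whole interval was more than 500 bp from any exon, and 1 reached an exon with its edge. The member farthest from any GENCODE exon was in Hs6st3 (a heparan sulfate 6-O-sulfotransferase), 160248 bp away, with 3.39 in replicate 1 and 3.55 in replicate 2. The next was in Cadm2 (a synaptic adhesion protein), at 139776 bp with 6.12 and 3.66. From the nearest RefSeq exon these lay 53886 and 44541 bp away, and other members lie farther. At the 500 bp limit the values did not separate. Just inside lay members in Cab39l and Cdadc1, which overlap (502 bp, 4.76 and 3.04), Rtn4rl2 (506 bp, 6.43 and 3.15) and Capn2 (509 bp, 4.22 and 1.45). Just outside lay intervals in Dpp9 (498 bp, 3.21 and 2.26), Adcy6 (495 bp, 4.46 and 2.90) and D030068K23Rik (493 bp, 3.47 and 2.14).

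The share of members in first introns was close to the share of intron sequence there. Of 339 members inside an intron of the representative transcript of their host, 110 lay in its first intron (32.4%, 27.7 to 37.6%), and first introns hold 33.0% of the deep intronic bases of the same hosts. Members in first introns had medians of 4.24 and 3.20, and the 229 in other introns 4.02 and 2.92. Along the intron, counted in 4 equal parts from the 5′ end, 105, 97, 94 and 43 members were found, so that the part next to the 3′ splice site held the fewest (12.7%, 9.56 to 16.7%). Those 43 members held GGACT in 34.9%, against 20% of the 105 at the 5′ end. Very long introns of over 100 kb held 99 members. No share of deep intronic sequence is set beside the parts of the intron or the long introns, so these are counts only.

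The 439 members lay in 327 host genes, of which 277 were protein-coding, 17 antisense and 13 lincRNA genes. In 31 members the midpoint lay in 2 overlapping genes. There were 242 hosts with 1 member, 55 with 2 and 30 with 3 or more. Protein-coding hosts were long, with a median length of 100.7 kb against 27.9 kb for protein-coding genes with a shared exonic interval. Of the hosts 242 (74.0%) also had a shared interval in an exon and 85 had none.

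Within a host the intronic interval was usually the more enriched one, among intervals from peaks that passed the caller's cutoff in both lists. Of 326 members in single hosts with exonic intervals, 245 exceeded the median of those in replicate 1 (75.2%, 70.2 to 79.5%) and 252 in replicate 2 (77.3%, 72.5 to 81.5%). In both replicates 206 did, and 114 exceeded the most enriched exonic interval in both (35.0%, 30 to 40.3%). The median ratio to the exonic median was 1.39 in replicate 1 and 1.29 in replicate 2, against 1.0 and 1.01 for 727 near-intronic intervals. The ratios were 1.58 and 1.44 for the 107 members of at least 70% purine and 1.29 and 1.23 for the other 219.

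The host with the most members, 11, was Gm20388, a gene model of 4435 kb that spans many other genes, so that it says little about a single transcript. Of its members 5 lie in RefSeq exons of other genes. Its members ran from 2.98 to 6.32 in replicate 1 and from 1.96 to 4.04 in replicate 2, and 4 of them also lay in a second host.

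Kcnip4 came next with 9 members, all in its first intron of over 1 Mb, where they were spread over 102 to 538 kb from the gene start. From the 5′ end their values in replicate 1 and replicate 2 were 3.12 and 3.77, 5.04 and 4.73, 5.04 and 5.25, 6.70 and 5.71, 7.12 and 4.82, 5.46 and 4.60, 6.20 and 2.81, 5.01 and 3.32, and 3.96 and 2.05. The 5 members with more than 4 in both replicates lay next to each other between 194 and 274 kb. Purine content was 63.1% or more in all 9. Exons of other Kcnip4 transcripts divide this intron. The only shared exonic interval of Kcnip4 had 4.36 and 2.30.

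Rbfox1 (a neuronal splicing factor) had 6 members, each of at least 71.7% purine and at least 30082 bp from a GENCODE exon. In order from the gene start, they had 7.52 and 3.89, 6.80 and 2.57, 4.68 and 3.51, 3.60 and 4.16, 8.49 and 2.55, and 4.13 and 1.91. Its 4 exonic intervals reached 3.18 and 2.4, so that in replicate 1 every member was above all of them, and in replicate 2 all but the last. That last member lies in an exon of Rbfox1 in RefSeq.

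Anks1b (a postsynaptic scaffold protein) had 5 members. From the gene start they had 6.40 and 4.68, 5.90 and 3.33, 1.80 and 3.65, 4.96 and 3.09, and 7.0 and 5.79. The weak one in replicate 1 was also the member nearest to an exon, at 512 bp, and the only one below 70% purine, and lies in a predicted exon of Anks1b in RefSeq.

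Nrg3 had 4 members in its first intron, with 3.8 and 3.35, 4.48 and 2.98, 11.4 and 5.78, and 7.58 and 2.41 from the gene start on. Csmd1 (a large synaptic membrane protein with complement-control domains) had 3.82 and 4.46, 3.99 and 3.95, 2.54 and 3.31, and 11.2 and 2.09. The last pair shows how far the replicates could part in a purine-rich member, here 84.1% A and G. Cadm2 had 4.35 and 3.20, 6.12 and 3.66, 3.30 and 2.90, and 2.23 and 3.36. Pcdh9 (a protocadherin) had 2.81 and 2.41, 3.29 and 2.85, 6.19 and 2.69, and 5.78 and 2.76, and Fam155a (a subunit of the NALCN sodium leak channel) 5.35 and 3.51, 5.19 and 3.60, 3.22 and 3.89, and 3.62 and 4.46. The first 3 Pcdh9 members lie in predicted exons of Pcdh9 in RefSeq, and the first 2 of Csmd1 in predicted exons of another gene. The closest neighbours in these 5 hosts were the first 2 members of Fam155a, at 8.97 and 12.8 kb from the gene start.

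Copg2 (a subunit of the COPI vesicle coat) differed from these hosts. Its 6 members had between 26.5 and 36.1% purine on the host strand, which leaves the opposite strand rich in purines. The strand of the RNA behind these peaks was not measured. GGAC was on the host strand in 2 of the 6, and the exons of Copg2 held no shared interval. A single replicate 1 peak of 5.05 covered 4 of the members, whose replicate 2 values were 3.15, 1.66, 1.78 and 2.17. The other 2 had 4.34 and 2.21, and 1.97 and 1.25. In all, 12 replicate 1 peaks and 1 replicate 2 peak held more than 1 member, so that the 439 members stand on 423 peaks of replicate 1 and 438 of replicate 2.

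Some members lay near each other, though no such share is given for other intervals. Of 439 members 143 had another within 10 kb in the same host (32.6%, 28.4 to 37.1%), in 64 groups, 12 of them of 3 or more. Part of these neighbours are pieces of 1 peak, since 28 members share a replicate 1 peak with another. The share was 22.5% when peaks had to overlap by 50% of both. The longest group was that of Copg2, with 5 members in 3.27 kb. It was followed by Rasgrf1 (an exchange factor of Ras, expressed in neurons), with 4 in 7.38 kb, of 2.47 to 6.03 in the first and 2.23 to 2.51 in the second replicate. Grin2a (a subunit of the NMDA receptor) had 3 in 16.7 kb, with 3.8 and 5.03, 6.20 and 4.57, and 3.48 and 3.51. The median gap between neighbours in 1 host was 6.46 kb over 136 pairs, of which 30 lay within 1 kb and 41 more than 50 kb apart.

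Genes of the synapse and of neuronal excitability were among the hosts. Of 8827 protein-coding genes with deep intronic sequence and a shared interval, 277 held a member (3.14%), with 0.746 members per Mb of such sequence. The member itself can bring a gene into this count, and 55 of the 277 had no shared interval in an exon. Genes with no shared interval are not counted, here or in the lists below, which can raise the shares and densities. Of 34 genes for glutamate receptor and GABA-A receptor alpha, beta and gamma subunits, 9 held a member (26.5%, 1.1 per Mb). Without Grin2a the density was 0.860 per Mb. The genes of this list are long, with a median of 240 kb of deep intronic sequence against 17.6 kb over all protein-coding genes counted. GABA-B subunit genes such as Gabbr2 are not on that list. The 9 with a member were Grin2a, Gria3, Grik1, Grik2, Grik5, Grin2c, Grm4, Grm5 and Grm7, and the GABA-A subunit genes of the list had none. Grik2 had 7.57 and 3.33, Grik5 3.62 and 4.87, and Grm4 5.41 and 2.95.

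Of 78 genes matched as voltage-gated channels and their partners, 10 held a member (12.8%, 1.78 per Mb). Kcnip4 had 9 of their 20 members, and without it the density was 1.08 per Mb. Cacna1c (the pore of an L-type calcium channel) had 4.47 and 4.60, and Scn9a (a sodium channel) 5.87 and 2.41. A list of 137 adhesion and guidance genes took in neurexins, neuroligins, contactins and their relatives, cadherins, protocadherins, Csmd, Dscam and Lrrtm genes, some receptor phosphatases, and guidance ligands and receptors. On it 9 held a member (6.57%), with 0.546 members per Mb. It leaves out other adhesion genes such as Cadm2, with 4 members, so that these values hold for the listed genes only. Nlgn1 (neuroligin 1, a postsynaptic adhesion protein) had 3 members, with replicate 1 values of 4.44 to 8.63 and replicate 2 values of 3.17 to 4.67.

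Of 36 genes for RNA-binding and splicing factors, 4 held 11 members (2.34 per Mb): Rbfox1 with 6, Celf2 and Mbnl2 with 2 each and Elavl3 with 1. Without Rbfox1 the density was 1.56 per Mb. Among 18 genes of the m6A machinery and Prrc2 family, 2 held members. Ythdf3 (an m6A reader) had 1 with 5.38 and 2.47, of 75% purine and with GGACT. Igf2bp3 (also reported as a reader) had 2, with 3.51 and 3.19 and with 3.06 and 3.12, the latter in a predicted RefSeq exon of a gene on the other strand. Gene length moves with these shares: over the protein-coding genes ranked into 4 equal classes by their deep intronic sequence, the share with a member was 0.317, 1.54, 3.44 and 7.25%, while members per Mb were 1.38, 1.61, 1.32 and 0.613. Whether the groups differ from other genes of their length was not tested.

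Some members lay in exons of another annotation. In RefSeq, whose exons were looked at after the members had been examined, 101 midpoints fell in an exon and 17 more within 500 bp of one. Of the 101, 46 had 1 host and lay in an exon of the gene with its symbol. The other 55 lay in a gene with another symbol or had 2 hosts. Some of those with 2 hosts, such as Cab39l and Cdadc1, lay in an exon of 1 of the 2. Of the 101, 73 were in predicted models only. The median fold enrichment of the 101 was 3.54 in replicate 1 and 2.82 in replicate 2. The 321 members more than 500 bp from RefSeq exons as well had 4.37 and 3.10. The single-host members in RefSeq exons held GGACT on the host strand in 38.2% and were at least 70% purine in 8.99%, whereas those more than 500 bp away had 18.8% and 36%.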

How the data were processed

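Per the study's methods, the authors aligned reads to mm10 (TopHat2 2.0.9 in the submitters' processing notes), kept uniquely mapped reads and called peaks with MACS2 for each IP against its own input, without a fragment model, with duplicates kept and without pooling. The deposited values are peak positions and the fold enrichment, a ratio of IP over input. Duplicates can raise that ratio where molecules are few. Read depth is not given in the lists, and all intervals cover counting error only.

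Both lists were intersected (checked against bedtools 2.31.1, with identical intervals) and midpoints placed on GENCODE M21, with strand taken from single hosts. Scripts were tested on simulated data. Regions are not replicates, so no test was made. Genes named in the text are the 10 hosts with the most members, the 10 strongest members by the lower fold enrichment (1 per host), the 3 intervals on each side of 500 bp, the 3 farthest members (1 of which is not reported here), the host of the longest group and hosts in the gene lists. Ties in the number of members went to the host whose best member had the larger lower fold enrichment. Other names are examples chosen after their values were seen. Members and lists were chosen with earlier results of these data known. Purine content, repeat words, shared words of 20 bases and RefSeq exons were looked at after seeing the data. The alternatives varied overlap, enrichment minimum, distance, gene type, merging, single lists, intron definition, neighbour distance and motif.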

Additional observations from a re-analysis of the deposited data

How the results depend on the processing

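Of 81 alternative values 68 stayed within the spread used for comparison. That spread was the 95% Wilson interval for shares and a factor of 1.5 either way for counts. For median fold enrichment the limits were wide: 3.32 and 4.93 for the first replicate, 2.18 and 3.79 for the second. Every median stayed inside, with replicate 1 medians of 3.70 to 4.37 and replicate 2 medians of 2.98 to 3.12. Both pairs of limits also enclose the medians outside genes, 3.61 and 2.80, and the second pair the exonic 2.33. Staying inside therefore says little about how stable the medians are. Taking all deep intronic peaks of 1 list in place of the shared set gave 568 to 3267 intervals, 416 to 1711 hosts, 31.7 to 34.5% in first introns, 32.2 to 43.3% with a neighbour and 22.6 to 26.5% with GGACT. These values are without replicate 1 and without replicate 2, and the larger counts are those of replicate 1 alone. In single lists median fold enrichment was 3.70 in replicate 1 and 2.98 in replicate 2.

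With introns taken as gaps between the merged exons of all transcripts, 27.0% of members lay in first introns. The share with a neighbour was 22.5% when peaks had to overlap by 50% of both, 22.8% with peak midpoints within 100 bp, 26.7% for neighbours within 5 kb, 37.8% for neighbours within 50 kb, and 28.3% when members also had to be more than 500 bp from RefSeq exons. GGACT was in 18.8% of members under that last rule and in 16.7% over 200 nt at the midpoint. GGAC in its place was in 57.1% and DRACH in 91.9%. Beyond the construction of each alternative, causes were not tested.

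With 2 IP samples of 1 group, no comparison of groups was possible. No paired analysis was possible because the inputs enter only through the ratios. The lists give no coverage, so the precision of single fold enrichments is unknown.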
